A study of Mus musculus with 12 samples.

Results

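The subcortical maternal complex is described here through the 4 genes that encode its core, Ooep, Padi6, Tle6 and Nlrp5, taken by symbol from the 23235 genes of a table of polysome-bound RNA in mouse oocytes. All 4 were found once each, and all 4 had a mean above 1 FPKM (fragments per kilobase of transcript, scaled for library size), the level above which 11667 genes were tested. Oocytes came from C57BL/6 mice at postnatal day 21, either wild type (WT) or Cnot6l-/- (KO), a mutant of a catalytic subunit of the CCR4-NOT deadenylase. Each genotype was sampled at 3 stages: the germinal vesicle stage (GV) 48 h after PMSG, a gonadotropin that makes follicles grow, meiosis I (MI) after 8 h in culture and meiosis II (MII) after 16 h in culture. Every group had 2 libraries, 12 in all, made by Tn5 tagmentation of 500 pg of cDNA that had first been amplified. The labels do not name the deleted part of Cnot6l, the number of oocytes in a library or whether replicates came from separate animals, so the p-values measure the spread between these libraries, which may be technical.

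The complex assembles under the plasma membrane of growing oocytes and passes to the embryo, where it stays in the outer cortex of the cells and is lost from zones of contact between them. It is known for maternal effects: embryos of females that lack NLRP5, OOEP, TLE6 or PADI6 stop during early cleavage. Its transcripts are made during oocyte growth and stored, because a fully grown oocyte no longer transcribes, and maturation then depends on the translation, polyadenylation and removal of stored mRNAs. Removal of the poly(A) tail by CCR4-NOT is one step of that removal. Polysome-bound RNA reports the mRNA engaged with ribosomes, and in the libraries used here loss of an mRNA and its release from polysomes cannot be told apart. As in any bulk sample, fewer cells of a type and less RNA per cell cannot be told apart either.

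The ends of the transcripts carry the signals that set tail length, so 30 bases are shown for each member, 5′ to 3′ on the sense strand. They surround the poly(A) signal AATAAA (in capitals) within the last 100 bases, or are the last 30 where it does not occur there. The letters were read from mouse build mm9 by the gene ends of the deposited table: chr4:140283276-140283305 for Padi6 and chr10:81053652-81053681 for Tle6, both on the minus strand, chr7:24226906-24226935 on the plus strand for Nlrp5, and chr9:78224710-78224739 on the minus strand for Ooep.
Padi6: tgccatagagccAATAAAgcatggtattct
Tle6: cgagttgcgtgtAATAAAacaattgaaatg
Nlrp5: tagcaagaatgaAATAAAcacagcatttag
Ooep: ccaagttctgtgataaaggtgtgctccacc
The signal lay 18 bases before the end in Padi6, 14 in Tle6 and 17 in Nlrp5. The Ooep window holds no AATAAA, and neither do its last 100 bases, while 56.4% of 23167 genes hold one there. In GENCODE (mouse release vM1) the Ooep transcript runs past the deposited end to position 78223916, with 3 ATTAAA, a variant of the signal, in its 3′ UTR. None of these is close to either end. The last of them lay 615 bases before the GENCODE end, and the last 100 bases before the deposited end hold no ATTAAA.

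Padi6, Tle6 and Nlrp5 shared short 3′ UTRs in that annotation, of 221, 130 and 108 bases, against 1446 bases in Ooep. The median over the 11076 tested genes with an annotated 3′ UTR was 795 bases, and 18.1%, 10.3% and 8.28% of them had one as short as that of Padi6, Tle6 and Nlrp5. A cytoplasmic polyadenylation element, the motif through which stored mRNAs gain tails during maturation, was searched on the sense strand as TTTTAT and as TTTTAAT. Neither string is present in the 3′ UTR of any member, and within the last 100 bases 12.1% of all genes hold TTTTAT and 4.45% hold TTTTAAT. The AU-rich pentamer ATTTA, a core of elements bound by ZFP36-family decay factors, is in the last 100 bases of Ooep, of Nlrp5 and of 20.7% of all genes; over the whole 3′ UTR it occurs 8 times in Ooep and 1 time in Nlrp5. The Pumilio element TGTANATA is in no 3′ UTR of the 4, and 3.76% of all genes hold it in their last 100 bases. These matches describe letters in a window and no binding.

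Summed FPKM ranged from 884142 to 1663871 between libraries, and 9064 to 13319 genes were above 0; the depth in reads is unknown. All 10 oocyte markers (Zp1 to Zp3, Gdf9, Bmp15, Figla, Nobox, Npm2, Dppa3 and Kit) were above 0 in every library. Summed FPKM of 18 cumulus and granulosa markers was 318 to 346 in the GV libraries of WT, 135 to 155 in its MI and 72.0 to 83.7 in its MII libraries, and in KO 171 to 272 (GV), 177 to 190 (MI) and 89.2 to 133.5 (MII), with Foxl2 at 0 throughout. In WT their sum was lower at each later stage, and its part in the results was not tested. Cnot6l itself, on chromosome 5 (96505816 to 96591009), had 38.7 and 16.1 FPKM in the GV libraries of WT, 68.5 and 47.9 in its MI and 65.2 and 49.4 in its MII libraries. The KO libraries had 6.28 and 21.6 (GV), 23.5 and 16.5 (MI) and 16.4 and 16.0 (MII). KO lay below WT at MI and MII, but the GV libraries overlapped, so Cnot6l does not check the genotype labels at GV. Its log2 difference was -1.75 at MII (limma adjusted p = 0.0425), and that call was lost without any 1 of 8 libraries of the MI and MII groups (adjusted p = 0.0524 to 0.141) and with the replicate block (0.0533).

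Levels shifted across the whole table as well as in single genes, so each difference is given as deposited, on the log2(FPKM + 1) scale, and again after median scaling, in which each library was divided by its median ratio to the gene-wise geometric mean over 5734 genes. That scaling did not centre all tested genes. Their scaled median for KO vs WT was 0.02 (GV), 0.21 (MI) and 0.41 (MII). In WT it was -0.32 (MI vs GV), -0.125 (MII vs MI) and -0.63 (MII vs GV). In KO it was -0.08, -0.08 and -0.16 in that order. For the KO minus WT change it was 0.22 (GV to MI), 0.11 (MI to MII) and 0.39 (GV to MII). Differences were tested with limma on all 12 libraries and adjusted by the Benjamini-Hochberg method over 11667 genes, and a gene counts as called when its adjusted p is below 0.05. FPKM are per length, which lets levels of different genes be set side by side as far as the gene models hold; that of Ooep ends short of the GENCODE transcript, so its level against other genes is less sure.

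Padi6 (chromosome 4, 140283270 to 140298558, minus strand, 16 exons), a peptidylarginine deiminase family member needed for the cytoplasmic lattices of the oocyte, was the most abundant member in all 12 libraries. Of the WT libraries, those of GV had 7538 and 7547 FPKM, those of MI 10193 and 10403, and those of MII 2437 and 2295. Of the KO libraries, GV had 5814 and 5906, MI 19684 and 20275, and MII 12708 and 13789. The 6 groups did not overlap and ran, from high to low, KO MI, KO MII, WT MI, WT GV, KO GV and WT MII. Padi6 ranked 3rd among all genes in both KO MI libraries and 42nd to 49th in WT MII. After median scaling the first places closed up: WT MI, KO MI and KO MII overlapped, and the others stayed apart.

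Tle6 (chromosome 10, 81053650 to 81063645, minus strand, 14 exons) encodes a relative of the Groucho co-repressors that holds the complex together. WT libraries of GV had 7255 and 7543 FPKM, those of MI 7175 and 7332, and those of MII 1734 and 1643. KO libraries of GV had 4031 and 4315, those of MI 13710 and 14163, and those of MII 7451 and 7997. KO MI was highest and WT MII lowest, with KO GV next above it, and KO MII, WT GV and WT MI overlapped in turn between them. Its rank ran from 9th in KO MI to 75th in WT MII.

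Ooep (chromosome 9, 78224710 to 78226395, minus strand, 3 exons) encodes a small KH-domain protein of the complex, also called FLOPED. WT libraries had 1847 and 1911 FPKM before maturation (GV), 2093 and 1858 in MI, and 210.3 and 239.0 in MII. KO libraries had 1877 and 1738 (GV), 3020 and 3072 (MI), and 2167 and 2297 (MII). WT MII stood far below all other groups; WT MI, WT GV and KO GV overlapped in turn. From its lowest to its highest library Ooep spanned 14.6-fold, against 8.84-fold for Padi6, 8.62-fold for Tle6 and 3.71-fold for Nlrp5, and after median scaling 8.47-fold against 4.0011-, 3.86- and 3.17-fold. Its rank went from 51st in KO GV to 670th in WT MII.

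Nlrp5 (chromosome 7, 24170916 to 24226940, plus strand, 18 exons) encodes MATER, an NLR-family protein and an early known maternal effect factor of the mouse. WT libraries had 912 and 886 FPKM (GV), 736 and 782 (MI), and 542 and 596 (MII). The KO values were 699 and 850 for GV, 1942 and 2014 for MI, and 1819 and 1935 for MII. Both late KO groups lay far above every other library. WT MII was lowest as deposited, but after median scaling WT GV and KO GV were the lowest groups and WT MII lay above both.

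**Figure D1:**
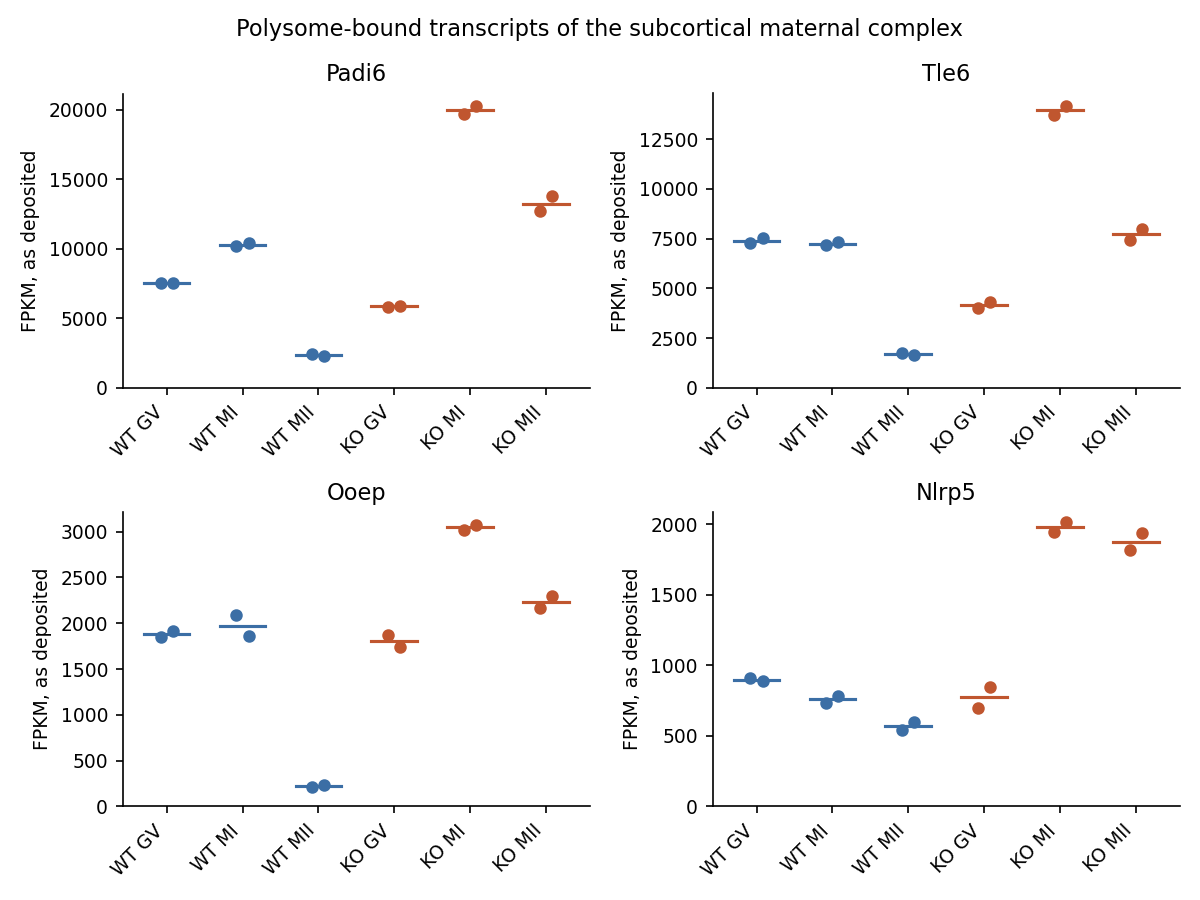
FPKM of each member in each library (points, 2 per group) with the group mean (line), WT in blue and KO in orange, on linear axes from 0. WT MII is the lowest group in all 4 panels and KO MI the highest; Ooep falls to 210.3 and 239.0 FPKM in WT MII.

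In WT oocytes 3 of the 4 members showed no called difference from GV to MI, and all 4 were lower at MII, to unequal extents. From GV to MI, Padi6 rose by 0.45 on the log2 scale (SE 0.0448, adjusted p = 0.000102), and the differences of Ooep (0.07), Tle6 (-0.03) and Nlrp5 (-0.24) did not pass the test (adjusted p = 0.59, 0.718 and 0.113). In that comparison 24.8% of tested genes were called and 3.06% were called higher, and the median gene differed by -0.87. Relative to that median all 4 members stood 0.62 to 1.31 higher, and after median scaling all 4 were called higher, by 1.13 for Padi6, 0.75 for Ooep, 0.65 for Tle6 and 0.43 for Nlrp5. Scaling also moved the split of all calls, from 357 higher and 2535 lower to 815 and 889. With the abundance trend removed, Padi6 and Tle6 instead stood at -0.14 and -0.51, so the direction of this step depends on the scaling.

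From MI to MII in WT, Ooep fell by 3.13 on the log2 scale (SE 0.0885, adjusted p = 6.63e-09), Padi6 by 2.12 (SE 0.0448, 8.2e-10) while Tle6 fell by 2.103 (SE 0.0517, 2.53e-09), all limma adjusted p. As ratios of group means, MI exceeded MII 8.79-fold for Ooep, 4.35-fold for Padi6 and 4.30-fold for Tle6. Nlrp5 fell by 0.42 (SE 0.104, adjusted p = 0.0164), a 1.33-fold ratio, and with replicate 2 of WT MI or replicate 1 of WT MII left out its adjusted p was 0.0826 or 0.0727, and after median scaling 0.198, no longer a call. Of all tested genes 22.1% were called and 16.4% were called lower, with a median of -0.27; Ooep lay at percentile 3.20 of all differences, Padi6 at 10.9, Tle6 at 11.1 and Nlrp5 at 46.1. When the 4 WT libraries of these stages were fitted alone no gene was called (2637 at an unadjusted p under 0.05), and Ooep, Padi6 and Tle6 had an adjusted p of 0.0582. Median scaling left the falls of Ooep, Padi6 and Tle6 at -2.91, -1.90 and -1.88.

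Over the whole span from GV to MII in WT, all 4 members were lower, by 3.06 for Ooep, 1.67 for Padi6, 2.13 for Tle6 and 0.66 for Nlrp5 (limma adjusted p = 3.93e-09, 2.56e-09, 1.23e-09 and 0.000502). The background was large, with 44.3% of genes called, 38.3% of all tested genes called lower and a median of -1.23. Against that median Nlrp5 stood 0.57 higher, and after median scaling it was at 0.24 (adjusted p = 0.0817), while the other 3 remained called lower. Calls over all genes went from 702 higher and 4463 lower to 1747 and 3017 under that scaling.

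In KO oocytes all 4 members were higher at MI than at GV, by 1.77 for Padi6 (SE 0.0448, adjusted p = 4.7e-09), 1.74 for Tle6 (7.96e-09), 1.36 for Nlrp5 (1.26e-05) and 0.75 for Ooep (0.000299), where 10.2% of genes were called, 8.89% were called higher, and the median was 0.26. After median scaling all 4 stayed called higher; Ooep stood at -0.29 after quantile normalization and -0.22 with the abundance trend removed. From MI to MII, Tle6 fell by 0.85 (SE 0.0517, adjusted p = 1.67e-05), Padi6 by 0.59 (3.76e-05) and Ooep by 0.45 (0.013), and Nlrp5 differed by -0.08 (SE 0.104, adjusted p = 0.738). These falls sat close to the median of all genes, -0.59, with 7.35% called and 7.18% called lower. Relative to that median Padi6 stood at -0.0024 and Tle6 at -0.26, and Ooep and Nlrp5 at 0.14 and 0.52. The Ooep call was lost without either library of KO MI or of KO MII (adjusted p = 0.0584 to 0.121). Under median scaling the all-gene split went from 19 higher and 838 lower to 98 and 79, Tle6 was still called lower (-0.27, adjusted p = 0.0379), and Nlrp5 was called higher (0.51, adjusted p = 0.0365).

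From GV to MII in KO all 4 members were called higher, the reverse of WT. Nlrp5 rose by 1.28 (SE 0.104, limma adjusted p = 2.11e-05), Padi6 by 1.18 (5.55e-08), Tle6 by 0.89 (1.69e-06) and Ooep by 0.30 (0.041). Here 15.9% of genes were called and 5.89% were called higher, with a median of -0.32. The Ooep call was lost in the fit with the replicate block (adjusted p = 0.0519) and without any 1 of 8 libraries, the 2 of WT GV and the 6 of KO (0.0634 to 0.211). Quantile normalization put Ooep at -0.27 and Tle6 at -0.0048, and with the abundance trend removed they stood at -0.17 and -0.07. The all-gene split moved from 687 higher and 1168 lower to 880 and 845 after median scaling, under which all 4 members were called higher.

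**Figure D2:**
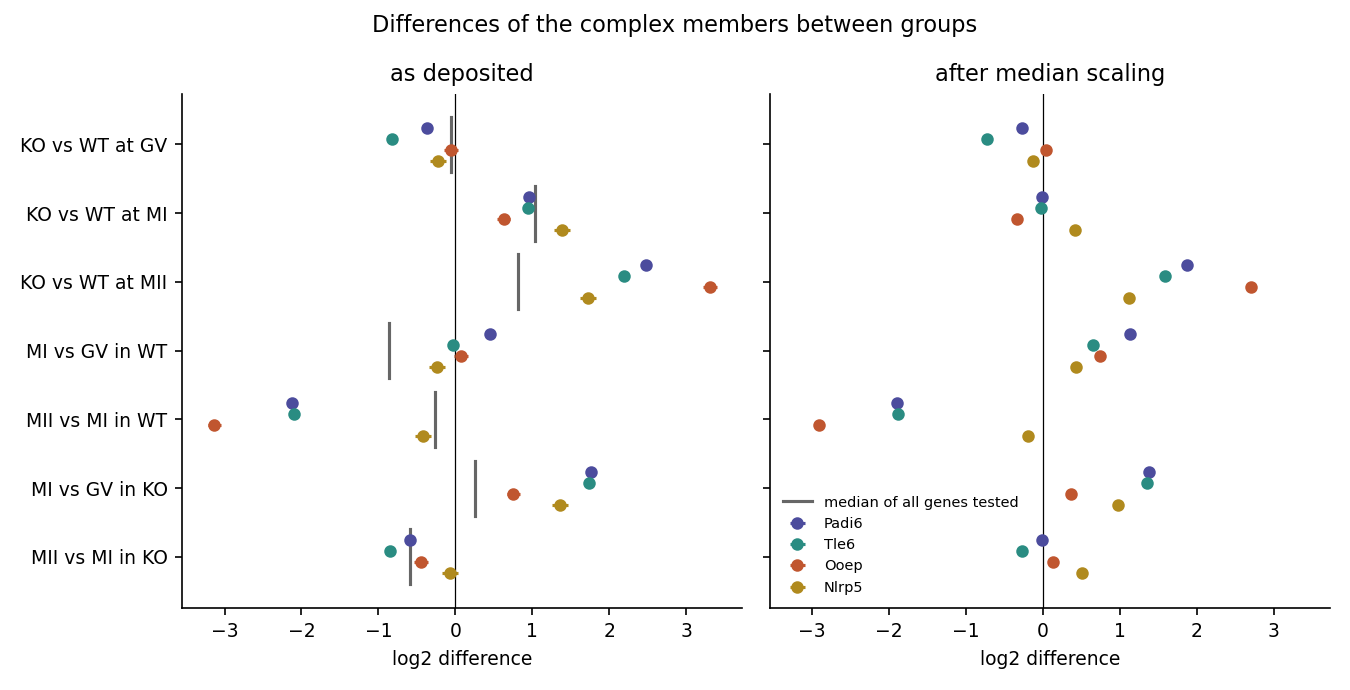
Log2 differences of the 4 members in 7 comparisons (points; bars, SE of the limma fit, left panel only), as deposited and after median scaling, with the median of all tested genes as a grey line on the left. At MII all 4 members lie right of the median for KO vs WT, from 1.72 for Nlrp5 to 3.31 for Ooep, and at MI they lie around it.

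At GV the called differences between genotypes were few, and KO, a label that Cnot6l does not check at this stage, was the lower genotype. Tle6 was lower in KO GV by 0.83 (SE 0.0517, limma adjusted p = 1.84e-05), at 56.4% of the WT mean, and Padi6 by 0.36 (SE 0.0448, 0.00212), at 77.7%. Ooep (-0.06, limma adjusted p = 0.932) and Nlrp5 (-0.22, 0.506) did not pass the test. The Ooep libraries of KO overlapped those of WT. Those of Nlrp5 did not, with 699 and 850 FPKM in KO against 912 and 886 in WT. Few genes were called at GV, 1.56% of those tested and 1.4% lower, with a median of -0.06. Both calls held after median scaling (-0.73 and -0.27) and were lost in the fit of the 4 GV libraries alone (adjusted p = 0.0959 for Tle6 and 0.147 for Padi6), where no gene was called by limma and 1532 had an unadjusted p under 0.05. The Padi6 call was also lost with the unfiltered table (limma adjusted p = 0.451), rescaling to 1 total (0.305) or quantile normalization (0.681). With the abundance trend removed Padi6 stood at 0.07 (0.688). With no trend in the variance step neither gene was called (0.698 for Padi6 and 0.25 for Tle6).

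At MI all 4 members were higher in KO, by 1.38 for Nlrp5 (SE 0.104, limma adjusted p = 2.36e-05), 0.96 for Padi6 (SE 0.0448, 1.58e-06), 0.94 for Tle6 (SE 0.0517, 3.6e-06) and 0.63 for Ooep (SE 0.0885, 0.00102). No KO MI library overlapped WT MI for any member, and the share of all genes without overlap was not counted. As deposited the higher levels did not set the members apart. The median gene was higher by 1.03, 28.4% of genes were called and 27.9% were called higher. Median scaling left only Nlrp5 called (0.41, adjusted p = 0.0446) and turned the other 3 to -0.34 for Ooep, -0.01 for Padi6 and -0.03 for Tle6. The split over all genes went from 3257 higher and 54 lower to 252 and 287. Other settings kept more calls. Padi6, Tle6 and Nlrp5 stayed called higher with rescaling to 1 total (TPM), quantile normalization or the abundance trend removed, and Ooep was not called. Over all genes these settings called 490, 213 and 201 higher and 157, 175 and 191 lower, in that order.

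At MII the members were higher in KO under every setting tried. Ooep was 9.94 times its WT mean, a log2 difference of 3.31 (SE 0.0885, limma adjusted p = 3.77e-09), Padi6 5.6001 times (2.48, SE 0.0448, 2.69e-10), Tle6 4.57 times (2.19, SE 0.0517, 1.65e-09) and Nlrp5 3.30 times (1.72, SE 0.104, 1.42e-06). Both KO libraries exceeded both WT libraries for each member, and the share of all genes separated in this way was not counted. The background was 28.6% of genes called, 25.4% called higher, and a median of 0.81, and the members lay at percentiles 95.5, 87.9, 83.3 and 74.3 of all differences in the order given. After median scaling they stood at 2.71, 1.88, 1.59 and 1.12, or 6.54-, 3.68-, 3.004- and 2.17-fold, all called, while calls over all genes went from 2967 higher and 373 lower to 1877 and 970. All 4 stayed called in each of 21 alternatives, among them each of the 12 libraries left out in turn. Set beside WT MI on the median-scaled level, with no test, KO MII held 12314 and 13325 of Padi6 against 12956 and 13059, and 2100 and 2220 of Ooep against 2661 and 2332. Tle6 was lower there, at 7219 and 7728 against 9120 and 9205, and Nlrp5 higher, at 1762 and 1870 against 935 and 982.

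The stage changes themselves differed between genotypes. From GV to MI the change in KO exceeded that in WT by 1.77 for Tle6 (SE 0.0731, limma adjusted p = 5e-07), 1.60 for Nlrp5 (0.000109), 1.32 for Padi6 (1.31e-06) and 0.68 for Ooep (0.00644), against a median gene of 1.13, with 14.7% called and 14.4% called higher. Tle6 alone of the 4 was still called after median scaling (0.71, adjusted p = 0.00096), and Ooep then stood at -0.38; the split over all genes moved from 1680 higher and 31 lower to 75 and 108. From MI to MII the excess was 2.68 for Ooep (SE 0.125, adjusted p = 1.22e-06), 1.53 for Padi6 (5.42e-07) and 1.25 for Tle6 (5.79e-06), and 0.34 for Nlrp5 did not pass (SE 0.147, adjusted p = 0.231). The median gene went the other way, at -0.25, and 6.52% of genes were called, 2.81% higher. After median scaling all 4 were called, Nlrp5 with 0.70 (adjusted p = 0.016), and the split over all genes moved from 328 higher and 433 lower to 526 and 202. Without an abundance trend in the variance step the Padi6 and Tle6 calls were lost (0.0594 and 0.0914).

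Over GV to MII the excess of the KO change was 3.37 for Ooep, 3.02 for Tle6, 2.85 for Padi6 and 1.94 for Nlrp5 (limma adjusted p = 4.54e-08, 1.81e-09, 1.22e-09 and 1.17e-05). Of all tested genes 17.8% were called and 16% were called higher, with a median of 0.89. All 4 members were called in each of the 21 alternatives, and median scaling left 2.67, 2.32, 2.15 and 1.24 in the same order. The split over all genes moved from 1868 higher and 205 lower to 965 and 482.

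**Figure D3:**
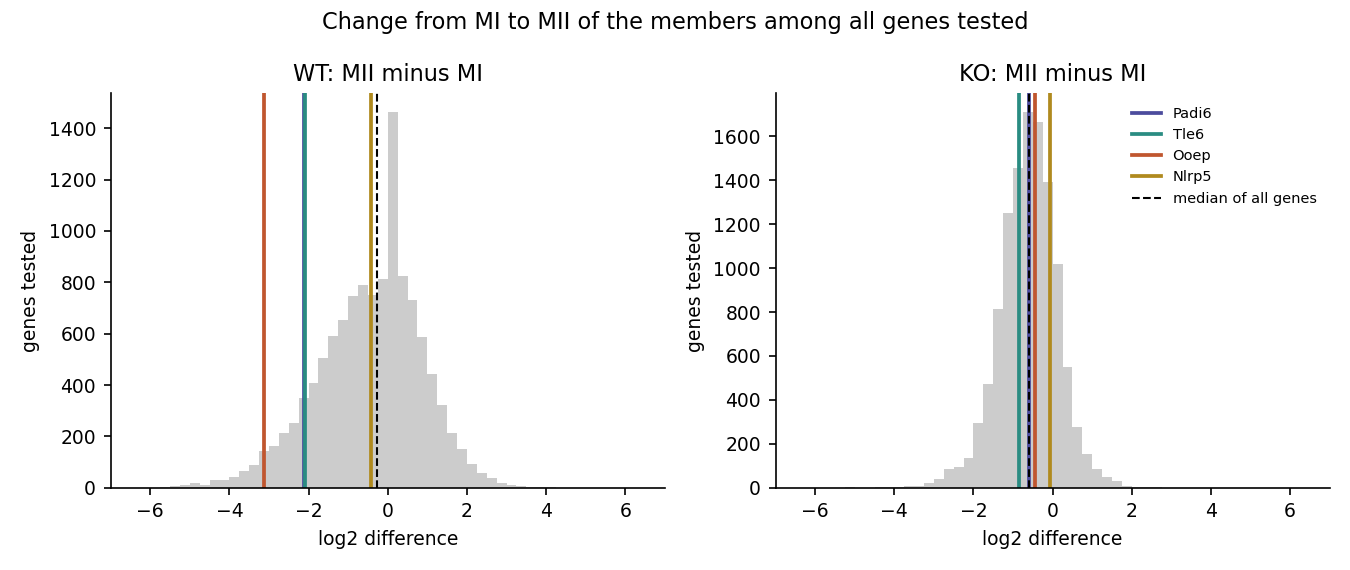
Histograms of the log2 difference from MI to MII over 11667 tested genes, in WT (left) and KO (right), with the 4 members as coloured lines and the median of all genes dashed. In WT, Ooep, Padi6 and Tle6 lie in the lower tail and Nlrp5 near the median; in KO, Padi6 lies at the median of -0.59, Tle6 below it and Ooep and Nlrp5 above it, Nlrp5 farthest at -0.08.

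Within a library the ratio of 2 members does not depend on the library's scale, so the proportions show unequal change directly. By group mean, Padi6 made up 42.6% to 52.8% of the members' summed FPKM and Tle6 30.8% to 41.8%. In WT the share of Ooep was 10.6% (GV), 9.74% (MI) and 4.64% (MII), and that of Nlrp5 was 5.07%, 3.74% and 11.7%. In KO the share of Ooep was 14.3%, 7.82% and 8.90% at GV, MI and MII, and that of Nlrp5 6.13%, 5.08% and 7.48%. Ooep thus exceeded Nlrp5 in 10 libraries and lay below it in the 2 of WT MII: for WT the ratio was 2.09 ± 0.094 (SD, n = 2) at the GV stage, 2.61 ± 0.33 in MI and 0.394 ± 0.0091 in MII, and for KO it was 2.37 ± 0.45, 1.54 ± 0.021 and 1.19 ± 0.0029 in that order.

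The ratio of Padi6 to Tle6 moved least, between 1.0005 and 1.72 over the 12 libraries. It was 1.02 ± 0.027 (SD, n = 2) in WT GV, where both had nearly equal levels, then 1.42 ± 0.0013 (WT MI), 1.40 ± 0.0058 (WT MII), 1.41 ± 0.052 (KO GV) and 1.43 ± 0.0030 (KO MI). KO MII had the highest, 1.71 ± 0.013. Between MI and MII of WT, Padi6 and Tle6 therefore fell in near proportion to each other, while Padi6 per Ooep went from 5.23 ± 0.52 to 10.6 ± 1.4 and Padi6 per Nlrp5 from 13.6 ± 0.4 to 4.17 ± 0.46. No test of these ratios was run. The 4 members together took 0.540% to 2.38% of the summed FPKM of a library.

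**Figure D4:**
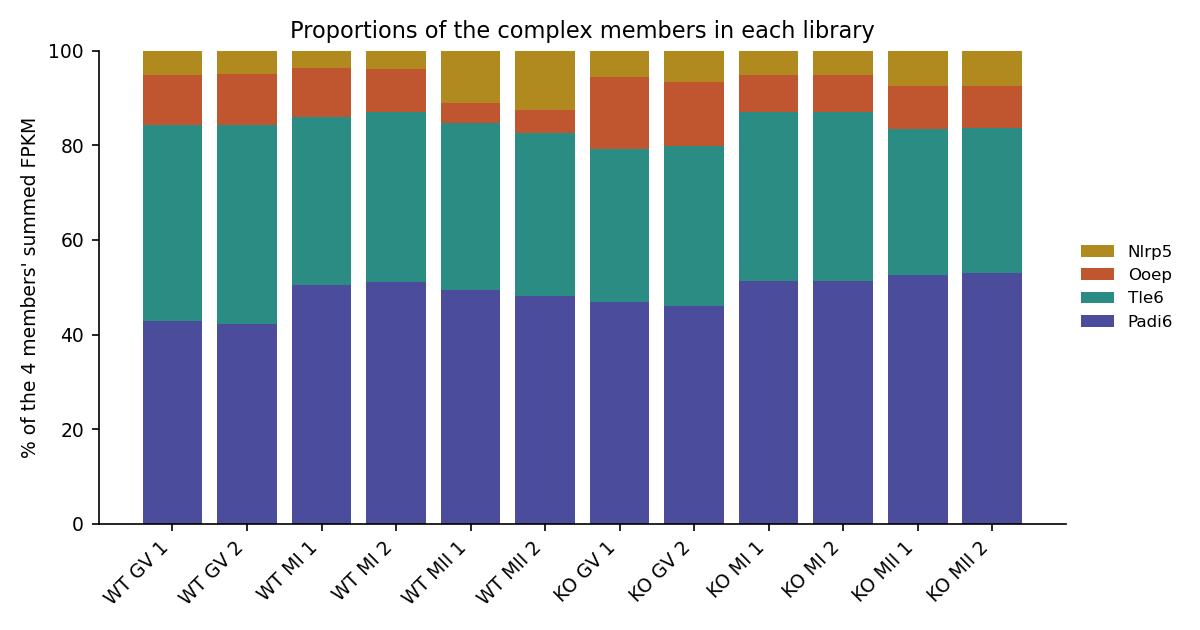
Share of each member in the 4 members' summed FPKM, 1 bar per library, in percent. Padi6 and Tle6 fill most of every bar; in the 2 WT MII bars the Nlrp5 segment is taller than that of Ooep, with group shares of 11.7% and 4.64%.

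Proteins known to associate with the complex did not all follow its core. From MI to MII in WT, Khdc3 (FILIA, a KH-domain partner) fell by 2.11 on the log2 scale, Nlrp2 by 1.72, and Nlrp14, a relative of Nlrp5, fell by 1.503 (limma adjusted p = 1.12e-08, 0.000103 and 1.23e-07). Khdc3 had 4942 and 5087 FPKM in WT MI and 1204 and 1124 in WT MII, against 3763 and 3832 in KO MII. Nlrp14 went from 3075 and 3260 to 1157 and 1078 FPKM in WT, and had 5325 and 5383 in KO MII. At MII all 3 were higher in KO, by 1.71, 1.79 and 2.26 (adjusted p = 4.36e-08, 6.11e-05 and 4.07e-09), also after median scaling. Khdc3 was already lower in KO GV, by 1.22 (adjusted p = 7.04e-06), with 1863 and 2083 FPKM against 4468 and 4715, a call lost when the GV libraries were fitted alone (0.0949) and with no variance trend (0.12).

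Zbed3, a zinc-finger protein reported to join the complex, did the reverse. It had 8332 and 8175 FPKM in WT MI and rose to 14575 and 14384 in WT MII, a log2 change of 0.81 (SE 0.0407, limma adjusted p = 5.18e-07). In KO it had 8746 and 8891 at MI and 7354 and 7757 at MII, and at MII it was lower than in WT by 0.94 (adjusted p = 1.43e-07). Its change from MI to MII differed between genotypes by -1.03 (adjusted p = 4.11e-06), opposite in sign to Khdc3 (1.42, 1.11e-05), Nlrp14 (1.40, 1.06e-05) and Nlrp2 (1.03, 0.0443). With no abundance trend in the variance step none of these 4 was called (adjusted p = 0.133 for Zbed3, 0.0701 for Khdc3, 0.0721 for Nlrp14 and 0.19 for Nlrp2). The Nlrp2 value was also not called with the replicate block (0.0525) or without any 1 of 8 libraries, the 2 of WT GV, of WT MI, of KO MI and of KO MII (0.0661 to 0.158). The Zbed3 differences kept their direction under each setting tried; its WT call was lost when those 4 WT libraries were fitted alone (0.0726), as were those of Khdc3 and Nlrp14 (both 0.0582) and Nlrp2 (0.0761).

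Uhrf1, a maternal chromatin factor, and Nlrp4f, another NLR-family member, did not pass the test between MI and MII of WT (-0.04 and 0.16, limma adjusted p = 0.909 and 0.492). Uhrf1 had 555 and 590 FPKM in WT MI and 505 and 612 in WT MII; Nlrp4f had 400 and 429, then 510 and 420. At MII in KO, Uhrf1 was called higher by 0.48 (adjusted p = 0.0246), a call lost when replicate 1 of WT MII (0.133) or replicate 2 of KO MII (0.177) was left out, and turned to -0.12 by median scaling. Of the 6 partners 4 were thus called higher and 1 lower in KO at MII, beside 25.4% and 3.2% of all tested genes, with a median of 1.09 against 0.81 over all genes; after median scaling 3 were called higher and 2 lower.

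**Figure D5:**
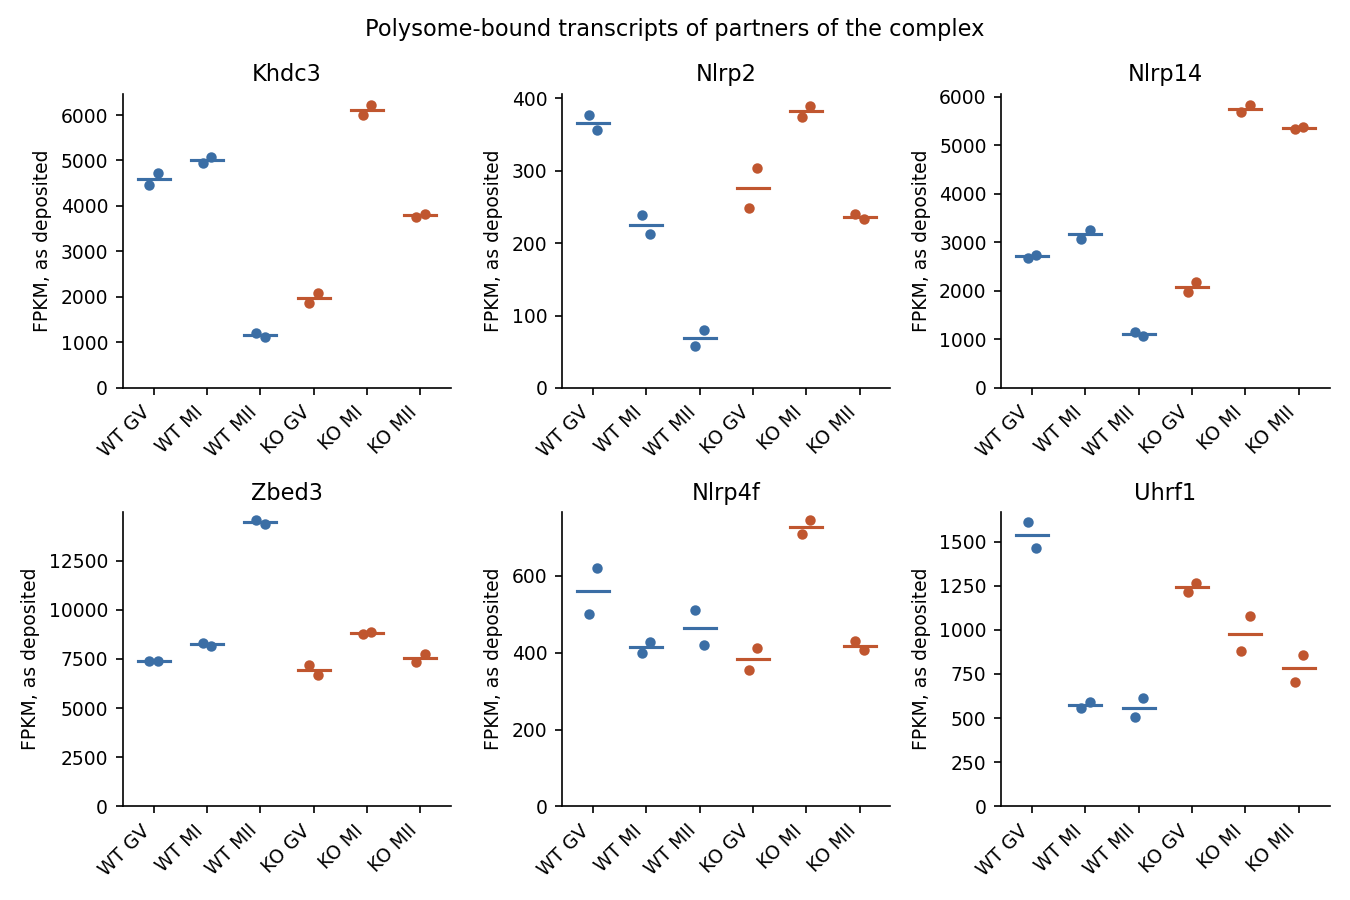
FPKM of 6 partners in each library (points) with group means (lines), WT in blue and KO in orange, on linear axes from 0. Khdc3, Nlrp2 and Nlrp14 are lowest in WT MII, whereas Zbed3 is highest there, at 14575 and 14384 FPKM.

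Relatives from the families of Padi6 and Tle6 were far less abundant than the members. Padi1 to Padi4 and Tle1 to Tle4 had at most 10.4 FPKM in any library, and Padi3 and Tle3 were listed at 0 in all 12. Aes, a short Groucho relative, was above 0 in every library, at 2.38 to 37.2 FPKM. Padi4 lies 2864 bases from Padi6 and Tle2 431 bases from Tle6; no gene of the table overlaps a member. Of the 9 neighbours of Ooep within 100 kb, Dppa5a, Omt2a and Omt2b had a mean above 1000 FPKM, and 4 had a mean under 20. Dppa5a, a KH-domain relative that lies 8703 bases away, fell by 1.40 from MI to MII in WT (limma adjusted p = 6.67e-08) and was higher in KO MII by 1.78 (adjusted p = 7.9e-09).

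Among 34 maternal effect genes, a list that holds the 6 partners but not the 4 members, 33 were tested. From MI to MII in WT, 10 fell and 6 rose, counts that median scaling left at 10 and 6, where 16.4% of all tested genes were called lower and 5.68% higher. Their median was -0.39 against -0.27 over all genes. The largest changes were those of Npm2 (-2.999, adjusted p = 2e-07), a histone chaperone of the oocyte nucleus, Ctnnb1 (2.21, 0.000315), which encodes beta-catenin, Dnmt3l (-2.13, 0.000105), a cofactor of de novo DNA methylation, and Khdc3. At MII 14 were higher and 4 lower in KO, beside 25.4% and 3.2% of all tested genes, and 13 and 7 after median scaling. Their median was 0.82 beside 0.81 over all genes; Npm2 was higher by 2.57 (5.02e-07) and Dnmt3l by 2.23 (6.11e-05). The 4 members had a median of 2.34 in that comparison. All these p-values are from limma with Benjamini-Hochberg adjustment.

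Across the 12 libraries, which share the same 6 groups and scales, the profiles of Padi6 and Tle6 were alike (Pearson's r = 0.974 of log2 values). Ooep was closer to Tle6 (0.923) and Padi6 (0.906) than to Nlrp5 (0.678), and Nlrp5 was closest to Padi6 (0.856) among the members. After median scaling r fell to 0.357 between Ooep and Nlrp5 and to 0.575 between Tle6 and Nlrp5, from 0.789. Before genes were ranked by likeness, symbols of predicted genes, clones and small RNAs were left out. Khdc3, listed under a clone symbol, was thus not compared. Of the 6212 genes left with a mean of at least 10 FPKM, those most like Ooep were Calm2 (0.993), Tceb1, Dnaja1, Zw10 and Cox7c (0.982). For Padi6 they were Hmgb2 (0.992), Eif2s2, Nlrp14, Tmbim6 and Skp1a (0.976), and for Tle6 Rsl24d1 (0.986), Dppa5a, Polr2d, Zp3 and Tmbim6 (0.978). Nlrp5 was most like H2-K1 (0.979), Dnmt1, Fbxo34, Rrnad1 and Wdr5 (0.966). In likeness to Ooep, Tle6 ranked 158th among the genes compared, Padi6 251st and Nlrp5 2157th. Padi6 ranked 117th for Nlrp5 and 7th for Tle6, and Tle6 ranked 8th for Padi6. These are descriptions over libraries that are not independent points, and after median scaling 3, 3, 4 and 3 of the 5 remained for Ooep, Padi6, Tle6 and Nlrp5.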

How the data were processed

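Polysome-bound RNA was measured in 12 libraries. The authors deposited FPKM for 23235 genes, per the file headers with the gene's coordinates. The submitters' processing notes list Cufflinks 2.2.1, Bowtie2 2.1.0, TopHat2 2.0.11, CASAVA 1.8 and the build mm9 without saying what each did; annotation, filters and read counts are not stated there. Low values gave no clear steps of whole reads, so precision rests on replicates alone, whose Pearson's r across tested genes was 0.865 to 0.949. The FPKM totals differ for an unknown reason, which moves every difference between groups, so median-scaled values stand beside the deposited ones.

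From these FPKM, log2(FPKM + 1) of the 11667 genes with a mean of at least 1 was fitted in limma 3.58.1 (R 4.3.3) with 6 group means and no replicate block; variances were moderated by empirical Bayes along an abundance trend. The 12 contrasts were 2-sided with Benjamini-Hochberg adjustment. Alternatives tried were the unfiltered table, a pseudocount of 0.1, rescaling to 1 total (TPM), median scaling, quantile normalization, removal of the abundance trend, no trend in the variance step, the replicate block, the compared groups alone, and leaving out each library. The fit was checked on simulated data that held no shift across the whole table and changed genes in KO MI alone. It was thus not checked for shifts like those between these libraries.

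The members and the lists of partners, family relatives, maternal effect genes and cell type markers were chosen with earlier results of these data known. Text names all members, partners and relatives, up to 4 called maternal effect or oocyte genes per comparison by size of change, the 5 genes most alike to each member, and Cnot6l. 3′ ends were read from the mm9 genome at the deposited gene ends, and 3′ UTRs from GENCODE vM1, in which 94.9% of tested genes had one; motifs there were searched on the sense strand alone.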

Additional observations from a re-analysis of the deposited data

Results flagged for a closer look

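For 11 of the 12 combinations of a member and a stage interval, the change over the interval differed between WT and KO by the limma interaction test, with Benjamini-Hochberg adjustment over all tested genes; the exception was Nlrp5 from MI to MII. From GV to MI the KO change exceeded the WT change on the log2 scale by 0.68 for Ooep, 1.32 for Padi6, 1.77 for Tle6 and 1.60 for Nlrp5. Here 14.7% of all tested genes were called and the median gene stood at 1.13; after median scaling Tle6 alone of the 4 was called. From MI to MII it exceeded it by 2.68 for Ooep, 1.53 for Padi6 and 1.25 for Tle6, with 6.52% of genes called and the median gene at -0.25. From GV to MII it did so by 3.37 for Ooep, 2.85 for Padi6, 3.02 for Tle6 and 1.94 for Nlrp5, with 17.8% of genes called and the median gene at 0.89. For each member both KO libraries of MII lay above both WT libraries, but how many of all genes did so was not counted.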

How the results depend on the processing

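Of 1008 alternative values of the 4 members, 901 kept their direction and their side of the threshold, 63 lost the call and 6 gained one with the sign kept, and 38 changed sign, called or not; for other genes named, 548 of 630 kept both. KO vs WT at MII and the excess of the KO change from GV to MII kept all 4 calls in all 21 alternatives each. The fit with the replicate block changed 1 member's call, Ooep in KO MII vs GV (limma adjusted p = 0.0519). Deviations of the replicates showed no correlation between groups (r = -0.029 to 0.055 over 15 pairs of groups). That check cannot exclude a shared origin of libraries with the same replicate number, which the labels do not give.

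The number of called members moved by over 1.5 times as follows. KO vs WT at GV went from 2 to 1 with no filter, TPM, quantile normalization or the abundance trend removed, and to 0 with no trend in the variance step or the compared groups alone. KO vs WT at MI went from 4 to 1 under median scaling. MI vs GV in WT went from 1 to 0 with no filter or no variance trend, to 3 with TPM and to 4 with median scaling. MII vs MI in WT went from 4 to 0 in the compared groups alone. MII vs MI in KO went from 3 to 1 with no filter or TPM and to 0 with no variance trend. MII vs GV in KO went from 4 to 2 with quantile normalization and to 1 with the trend removed. The excess of the KO change went, for GV to MI, from 4 to 1 with median scaling and to 2 with quantile normalization or the trend removed, and for MI to MII from 3 to 1 with no variance trend; it rose to 4 with median scaling or quantile normalization. In smaller moves, KO vs WT at MI went to 3 with TPM, quantile normalization, the trend removed or no variance trend, and MII vs GV in WT and MI vs GV in KO fell to 3 at lowest. MII vs GV in KO kept all 4 calls in 6 of 21 alternatives, and MII vs MI kept its count in 12 of 21 in each genotype. The cause was not tested, except that fits of the compared groups alone rest on fewer libraries.

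Signs changed as follows. In KO vs WT at GV, Ooep stood at 0.19 with TPM, 0.038 with median scaling, 0.31 with quantile normalization and 0.27 with the abundance trend removed, Nlrp5 at 0.021 with TPM and 0.081 with the trend removed, and Padi6 at 0.071 with the trend removed. In KO vs WT at MI, Ooep stood at -0.022 with TPM and -0.34 with median scaling, Padi6 at -0.011 and Tle6 at -0.025 with median scaling. In MI vs GV of WT, Tle6 and Nlrp5 stood at 0.24 and 0.023 with TPM and at 0.65 and 0.43 with median scaling, Ooep at -0.12 and Nlrp5 at 0.18 with quantile normalization, Padi6 at -0.14 with the trend removed, and Ooep at -0.016 to 0.156 with 1 library left out, the lowest without WT MI replicate 1. In WT, Nlrp5 stood at 0.016 for MII vs MI with the trend removed and at 0.24 for MII vs GV with median scaling. In KO, Ooep stood for MI vs GV at -0.29 with quantile normalization and -0.22 with the trend removed. For MII vs MI, Nlrp5 stood at 0.37 with TPM, 0.51 with median scaling, 0.39 with quantile normalization and 0.46 with the trend removed, and Ooep at 0.13, 0.017 and 0.046 in the latter 3. For MII vs GV, Ooep and Tle6 stood at -0.27 and -0.0048 with quantile normalization and at -0.17 and -0.068 with the trend removed. The excess of the KO change from GV to MI was -0.21 with TPM, -0.38 with median scaling, -0.17 with quantile normalization and -0.25 with the trend removed for Ooep. Uhrf1 stood at -0.12 (median scaling) and -0.082 (trend removed) for KO vs WT at MII, and for MII vs MI in WT at 0.20 with TPM, 0.18 with median scaling, 0.080 with quantile normalization, 0.38 with the trend removed, and from -0.179 to 0.10 with 1 library left out, above 0 without replicate 2 of WT MI (0.0021) or replicate 1 of WT MII. Its excess from MI to MII was 0.080 with median scaling and 0.10 with quantile normalization.

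Counts of called genes over the whole table ranged, over the alternatives, from 0 to 237 for KO vs WT at GV (182 as reported), 388 to 4352 at MI (3311) and 1537 to 3490 at MII (3340). They ranged from 1422 to 3727 for MI vs GV in WT (2892), 0 to 2786 for MII vs MI in WT (2574), 559 to 1557 for MI vs GV in KO (1194), 3 to 1589 for MII vs MI in KO (857) and 1009 to 2589 for MII vs GV in KO (1855). For the excess of the KO change they ranged from 179 to 2654 (1711), 180 to 1225 (761) and 1157 to 2479 (2073). The depth in reads is unknown, so what it limits cannot be given.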

Other observations

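Genes that define the oocyte itself moved between MI and MII of WT as most of the complex did. Of the 10 genes of the oocyte marker list, 8 fell in WT from MI to MII and none rose, where 16.4% of all tested genes were called lower. Their median was -1.11 on the log2 scale against -0.27 over all tested genes. Zp3, a glycoprotein of the zona pellucida, fell by 1.69 (limma adjusted p = 8.2e-10), and Nobox, a transcription factor of oocyte growth, fell by 1.86 (3.44e-06). In KO at MII 9 of the 10 were higher than in WT, beside 25.4% of all tested genes, with a median of 1.54 against 0.81 over all genes, and Kit did not pass the test (0.52, adjusted p = 0.0808). Zp3 had 3035 and 2992 FPKM in the WT libraries of that stage and 9657 and 9463 in those of KO, with no overlap. After median scaling 6 of the 10 were called higher there and 1 lower, Gdf9, a growth factor secreted by the oocyte, at -0.24 (adjusted p = 0.00708).

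Among the relatives of Ooep, Khdc1b was abundant throughout, from 857 to 1749 FPKM over the 12 libraries, while Khdc1a had 11.2 to 52.2 and Khdc1c at most 7.84.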
